A study of Mus musculus with 10 samples.

Results

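T cells of clonotypes found at least 5 times (expanded) were compared with T cells of clonotypes found once (single) inside SW1 melanoma tumors. Members were barcodes that carried a receptor contig, were present in the gene expression matrix of the same pool, had at least 500 detected genes and held at least 1 UMI (unique molecular identifier, 1 counted transcript) of Cd3e, Cd3d and Cd3g together. Across the 3 pools used, 584 expanded and 1280 single barcodes met the rule, of 2320 receptor barcodes that passed these gates, 37754 gene expression barcodes in those pools and 41936 in the series. Members were chosen by the measured clonotype frequency and Cd3 UMIs, so these are described and no test of them is given. No other transcript level was used. The Cd3 and T cell receptor constant genes were not left out of the gene fits, so call counts can include them.

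The study injected SW1 melanoma cells into the right flank of 4- to 6-week-old female C3H/HeJ mice, supplied plain or L-fucose (L-fuc) water from 10 days later by the labels (a longer interval in the study's methods), and sorted CD45+ cells from the tumors for droplet gene expression and T cell receptor libraries of the same cells. The 3 groups were a control pool at day 0, before any L-fuc, a control water pool at day 7 and an L-fuc water pool at day 7, and each was 1 pool (1 pair of libraries). All mice carried the same unmodified tumor line, and the labels give 3 mice at day 0 and 6 mice per arm in one protocol and 5 per arm in another, without the number in each day 7 pool. The same labels give the L-fuc dose as 100 mM in one protocol and as 100 nM in the other. The study's methods give 100 mM for the SW1 model and 6 mice per arm. The comparison of expanded with single barcodes was made inside each pool, so a pool served as its own control, while L-fuc and control stood at 1 pool each and were not tested against each other.

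Each developing T cell assembles a receptor from a TRA and a TRB chain. The joint of V and J (or V, D and J) segments is the CDR3. A pair of TRA and TRB CDR3 sequences is rarely shared by cells of different origin, while a single chain can recur. Barcodes that share CDR3 sequences are therefore read as one clonotype, and a clonotype seen many times in a tumor points to cell division after antigen contact. Naive T cells carry transcripts for circulation and survival, such as Ccr7, Il7r and S1pr1, while dividing and repeatedly stimulated cells carry granule proteins and inhibitory receptors.

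The day 0 pool held 386 receptor barcodes in 326 clonotypes, the control day 7 pool 949 in 577 and the L-fuc day 7 pool 1084 in 681. Clonotypes with a frequency of at least 5 numbered 4, 23 and 30 in that order, and the most frequent clonotype held 8, 60 and 25 barcodes. The same threshold was used in each pool although the number of receptor barcodes differed, and no pool was sampled down. Counts and shares of expanded clonotypes are therefore not comparable as measures of expansion between pools. Clonotypes of frequency 1 numbered 295, 493 and 550. In that order of pools, 499, 4000 and 2715 barcodes passed the gene and Cd3 gates. Of these, 380, 866 and 1074 carried a receptor, so most gated barcodes of both day 7 pools had no clonotype. Among those with a receptor, expanded clonotypes held 26 of 380 at day 0 (6.84%, exact 95% interval 4.52 to 9.86). In the control day 7 pool they held 281 of 866 (32.4%, 29.3 to 35.7). In the L-fuc day 7 pool they held 277 of 1074 (25.8%, 23.2 to 28.5). These and all later intervals cover counting error only, since barcodes of one clonotype are not independent. The share depended on how a clonotype was drawn: with barcodes joined by a shared TRB CDR3 (or, lacking one, a shared TRA CDR3) and barcodes with 2 TRB chains left out, it became 9.01%, 43.1% and 41.0%. That definition was chosen after the data were seen, and the intervals of the day 7 pools then overlapped.

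**Figure D1:**
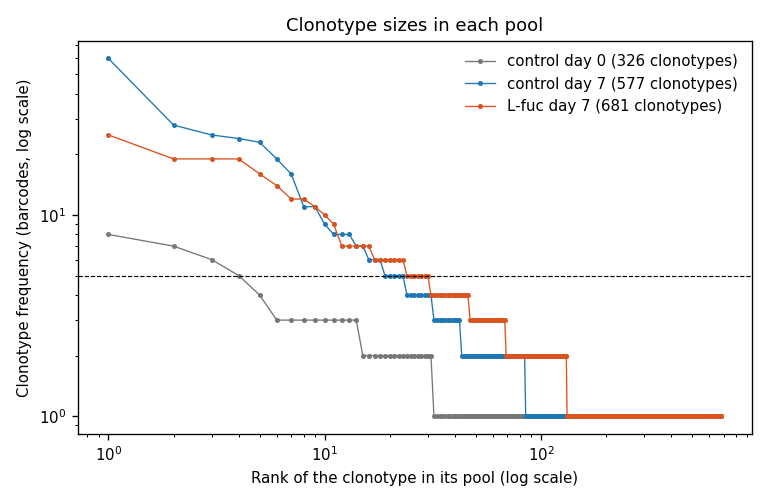
Frequency of every clonotype (barcodes, log scale) against its rank in the pool (log scale), 1 line per pool, with the dashed line at a frequency of 5. The control day 7 line starts highest, at 60, and the day 0 line crosses the threshold after 4 clonotypes.

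The CDR3 nucleotide sequences of the 3 most frequent clonotypes of each pool are shown because they define which barcodes were counted together. The TRB sequences are printed 5′ to 3′ as the deposited contigs give them. Capitals mark bases matched neither by the longest start found in any TRBV transcript nor by the longest end found in any TRBJ transcript of GENCODE vM21 (GRCm38, a C57BL/6 reference, while the mice were C3H/HeJ).

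control day 0, clonotype 1 (TRBV3, TRBJ2-1): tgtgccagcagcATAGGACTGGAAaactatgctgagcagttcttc

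control day 0, clonotype 2 (TRBV12-2+TRBV13-2, TRBJ2-5): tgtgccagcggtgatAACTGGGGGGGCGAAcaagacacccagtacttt

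control day 0, clonotype 3 (TRBV10, TRBJ1-3): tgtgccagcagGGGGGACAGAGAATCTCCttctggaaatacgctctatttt

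control day 7, clonotypes 1 and 3 (TRBV10, TRBJ2-4): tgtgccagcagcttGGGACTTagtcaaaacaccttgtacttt

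control day 7, clonotype 2 (TRBV13-1, TRBJ2-7): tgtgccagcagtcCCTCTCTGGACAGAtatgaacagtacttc

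L-fuc day 7, clonotype 1 (TRBV19, TRBJ2-7): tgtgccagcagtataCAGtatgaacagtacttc

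L-fuc day 7, clonotype 2 (TRBV13-3, TRBJ2-4): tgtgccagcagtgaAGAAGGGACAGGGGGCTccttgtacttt

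L-fuc day 7, clonotype 3 (TRBV10, TRBJ2-7): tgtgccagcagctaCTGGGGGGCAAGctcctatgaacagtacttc

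The unmatched stretch ran from 3 bases in clonotype 1 of the L-fuc day 7 pool to 18 bases in clonotype 3 of day 0. The rearranged chains end in the constant genes Trac (GRCm38 chr14:54220521-54224206, plus strand) and Trbc1 or Trbc2 (chr6:41538218-41539881 and chr6:41546730-41548352, plus strand). Of the TRB CDR3 sequences, 1489 occurred in 1 pool and 5 in 2 pools, and no TRB CDR3 of an expanded clonotype was found in another pool. TRA CDR3 sequences numbered 1291 in 1 pool, 15 in 2 pools, 1 in 3 pools and 1 in 4 pools. Of the TRA CDR3 sequences of expanded clonotypes, 2 of 30 in the L-fuc day 7 pool and none in the other 2 pools were also found elsewhere.

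Clonotypes that shared a chain with clonotype 1 accounted for much of the expanded class in the control day 7 pool. Clonotypes 1, 3, 6 and 8 of that pool carried the same TRB CDR3, the one printed above with GGGACTT in capitals. Clonotype 17 shared only a TRA CDR3, with clonotypes 1 and 3, and that CDR3 has 1 unmatched base. Whether clonotype 17 came from the same cell as the others was not tested. Of the 23 expanded clonotypes of this pool, 6 rested on a single chain. The TRA sequences of clonotype 1 are shown because they tie these clonotypes together, with capitals as above for TRAV and TRAJ.

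control day 7, clonotypes 1 and 6 (TRAV13D-3, TRAJ47): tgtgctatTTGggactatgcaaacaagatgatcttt

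control day 7, clonotypes 1, 3 and 17 (TRAV13-1, TRAJ49): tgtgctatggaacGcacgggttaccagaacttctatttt

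Together these 5 clonotypes held 103 of the 281 expanded barcodes (36.7%), and 20 single barcodes carried one of the same chains. In total 77 single barcodes of the control day 7 pool, 57 of the L-fuc day 7 pool and 6 of day 0 shared a chain with an expanded clonotype. A second TRB chain was found in 15.0% of single barcodes of the control day 7 pool and in 14.2% of those of the L-fuc day 7 pool, against 0.356% and 0.361% of expanded barcodes. Clonotypes were kept apart by their set of chains, so an added chain can by itself make a barcode single. This contrast thus follows at least in part from how the classes were defined. The single class therefore held barcodes that shared a TRA or TRB chain with an expanded clonotype and barcodes with a second TRB chain. Whether the former came from the same cell as that clonotype was not tested. Gene comparisons were repeated without each group in turn.

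Values just inside and just outside the threshold are given without a test. Over the 3 pools, 13 clonotypes of frequency 5 held 63 barcodes with 46.0% CD8-type. Their Pdcd1 level was 224 CPM (the gene's UMIs scaled to the summed UMIs of the class). The 25 clonotypes of frequency 4 held 100 barcodes with 49.0% CD8-type and 155 CPM. The pools differed: at control day 7 the CD8-type share was 26.1% of 23 barcodes at frequency 5 and 59.4% of 32 at frequency 4. At L-fuc day 7 these shares were 54.3% and 46.9%, and at day 0 they were 80.0% of 5 and 0% of 4 barcodes.

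Expanded barcodes were more often of the CD8 type in every pool. A barcode was called CD8-type with at least 1 UMI of Cd8a or Cd8b1, the chains of the co-receptor of cytotoxic T cells, and none of Cd4, and CD4-type in the reverse case. Barcodes with both or neither were of no type, and they made up a larger share of single than of expanded barcodes in each pool. At control day 7, 447 single barcodes held 133 CD8-type and 81 CD4-type ones, and 281 expanded barcodes held 182 and 19. The part of this in the CD8-type difference was not tested. At day 0, 18 of 26 expanded barcodes were CD8-type (69.2%, exact 95% interval 48.2 to 85.7) against 77 of 289 single barcodes (26.6%, 21.6 to 32.1). In the control day 7 pool the shares were 64.8% (58.9 to 70.3) and 29.8% (25.6 to 34.2), and in the L-fuc day 7 pool 47.7% (41.6 to 53.7) and 23.5% (20.0 to 27.3). The expanded CD8-type barcodes came from only 3, 17 and 21 clonotypes in that order of pools. Barcodes of one clonotype are not independent, so the intervals cover counting error only, and no test was run over the pools. After each barcode was thinned to 1000 UMIs the shares were lower, at 13 of 26 expanded barcodes against 16.7% of single barcodes, 29.2% against 15.7% and 28.5% against 13.3%, and the direction held.

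The CD4-type share did not move in 1 direction over the pools. They made up 6.76% (4.12 to 10.4) of expanded and 18.1% (14.7 to 22.0) of single barcodes in the control day 7 pool, and 31.0% (25.6 to 36.9) of expanded and 30.1% (26.3 to 34.2) of single barcodes in the L-fuc day 7 pool. At day 0 the 2 shares were 19.2% (6.55 to 39.4) and 28.7% (23.6 to 34.3), with overlapping intervals. Foxp3, the transcription factor of regulatory T cells, was seen in 3.85% of expanded against 14.2% of single barcodes at day 0. The shares were 6.76% against 13.9% in the control day 7 pool and 13.0% against 12.5% in the L-fuc day 7 pool. With 1 pool per condition the difference between L-fuc and control was not tested. Thinned to 1000 UMIs, the CD4-type shares were 4.63% against 6.26% in the control and 12.3% against 12.2% in the L-fuc pool. The thinned Foxp3 share was lower in expanded barcodes of every pool. It differed by -5.23 percentage points at day 0, -2.16 at control day 7 and -1.73 at L-fuc day 7. None of the 26 expanded barcodes at day 0 held Foxp3 after thinning. Without thinning and with at most 5 barcodes of a clonotype, the control day 7 share in expanded barcodes was 12.7%, near the 13.9% of single barcodes.

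A background for such shares was read from another cell type. Macrophage-type barcodes, which should lack T cell transcripts (at least 3 UMIs of the C1q genes, no Cd3 UMI, no receptor), showed a Cd8a or Cd8b1 UMI in 0%, 4.55% and 2.76% of barcodes at day 0, control day 7 and L-fuc day 7, at median depths of 5628, 4365 and 3008 UMIs. Cd4 was seen in 4.05%, 2.12% and 2.12% of them. Whether free RNA or doublets gave these UMIs was not tested. Foxp3 was seen in 0.476%, 0.948% and 0.340% of them, and Gzmb in 0.238%, 3.12% and 8.41%. Expanded barcodes had median depths of 5454, 4827 and 6033 UMIs and single barcodes 4732, 4714 and 5933. Gzmb, the granule protease granzyme B, was found in 57.7%, 16.7% and 32.5% of expanded and 10.7%, 11.4% and 23.0% of single barcodes. These lay above the macrophage-type share in each pool. That share can be too low as a background, since barcodes with a Cd3 UMI or a receptor were left out of it. Its barcodes were also shallower at L-fuc day 7.

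**Figure D2:**
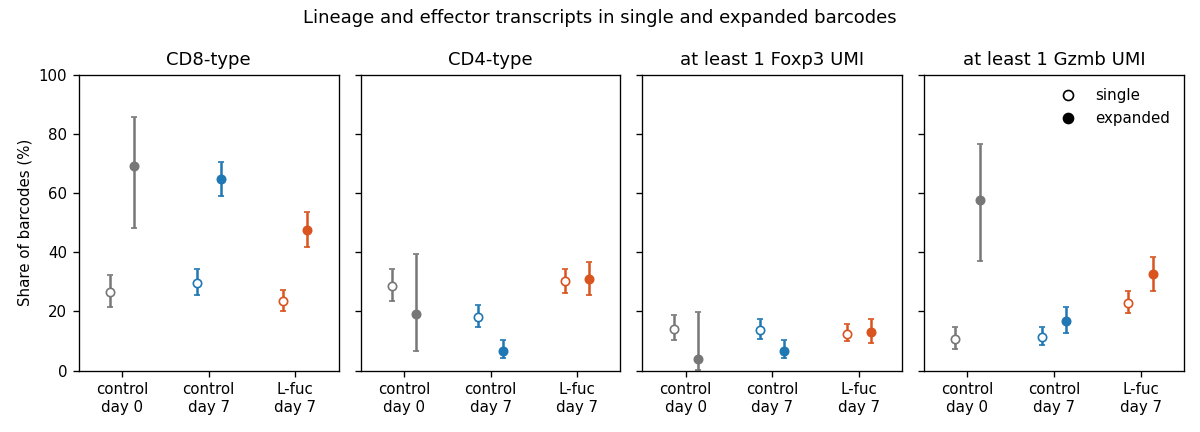
Share of barcodes (%) that were CD8-type, CD4-type, or held at least 1 UMI of Foxp3 or Gzmb, for single (open) and expanded (filled) barcodes of each pool, with exact 95% intervals as bars. The CD8-type share of expanded barcodes lies above that of single barcodes in all 3 pools, and the CD4-type share does so only in the L-fuc day 7 pool, by 0.900 percentage points.

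Few clonotypes held both CD8-type and CD4-type barcodes. Of the 57 expanded clonotypes, 35 held more CD8-type than CD4-type barcodes, 19 held more CD4-type than CD8-type and 3 were tied, and in 50 of them at least one of the types was absent, including clonotype 21 of the control day 7 pool with neither. The CD8 clonotypes of the control day 7 pool held 180 CD8-type and 1 CD4-type barcode among 228, and those of the L-fuc day 7 pool held 127 and 0 among 145. Clonotype 1 of the control day 7 pool had 45 CD8-type barcodes among 59, with Gzmb in 15. Clonotype 2 of that pool had 23 CD8-type barcodes among 27, with Gzmb in 1, so large CD8 clonotypes of one pool differed in this transcript.

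The CD4 clonotypes were 1 at day 0, 6 in the control day 7 pool and 12 in the L-fuc day 7 pool, with 7, 44 and 127 barcodes. They were less clear-cut by co-receptor: the 44 barcodes of the control day 7 pool were 17 CD4-type and 1 CD8-type, with 11 holding UMIs of both and 15 of neither, and the 127 of the L-fuc day 7 pool were 85, 4, 9 and 29 in that order. Clonotype 4 of the L-fuc day 7 pool held 16 CD4-type barcodes among 19 and 816 Ifng UMIs, of 1298 in all expanded barcodes of that pool. Clonotype 2 of the same pool held 15 CD4-type barcodes among 19, with 650 Ccl1 and 55 Il13 UMIs. Clonotype 3 was also mainly of the CD4 type, with 11 of 19 barcodes, and had 44.5 CPM of Pdcd1 against 665 CPM in clonotype 4. At day 0, clonotype 2 was of the CD4 type in 5 of 7 barcodes and carried Gzmb in 4. Barcodes with Foxp3 were no fewer than those without it in 3 clonotypes of the control and 4 of the L-fuc day 7 pool, the largest being clonotype 8 of the L-fuc pool with 7 of 12 barcodes.

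**Figure D3:**
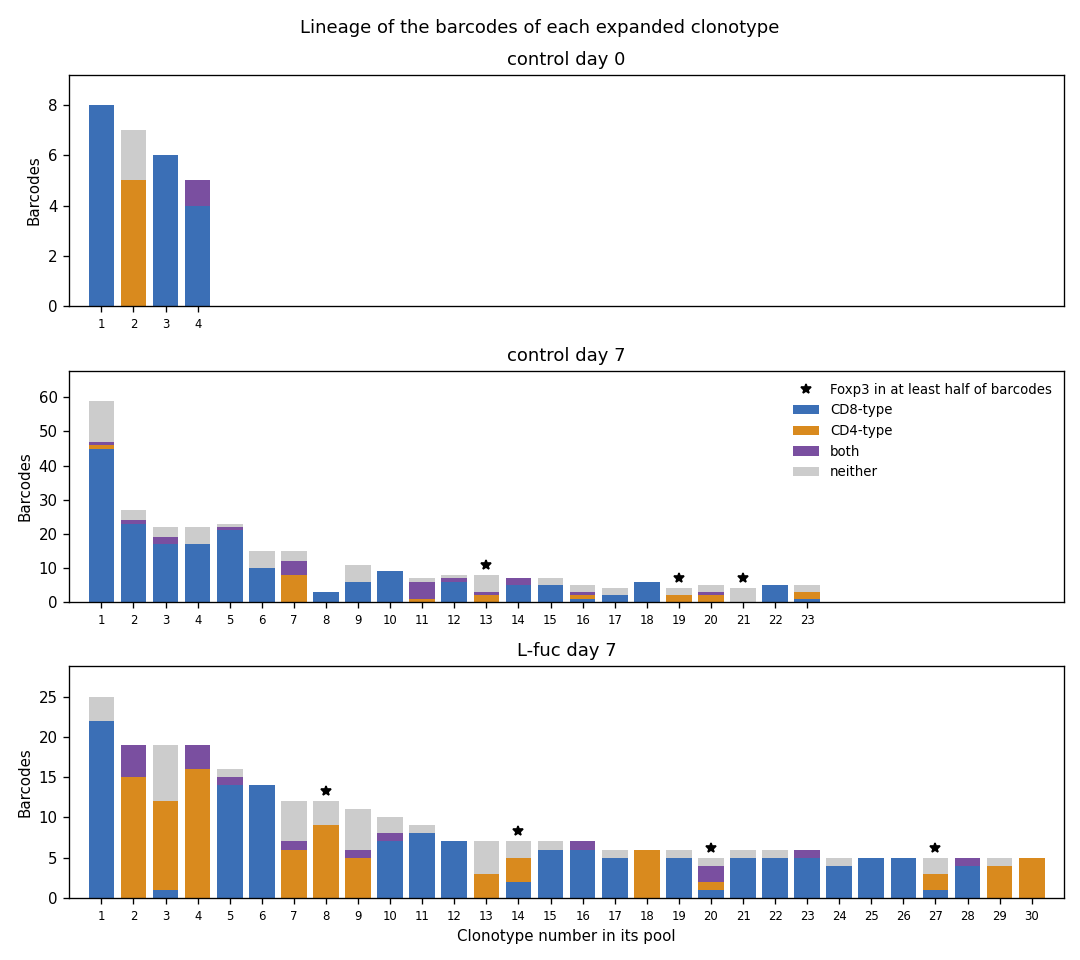
Number of barcodes of each expanded clonotype that were CD8-type, CD4-type, held both or neither, by pool and clonotype number, with a star where barcodes with Foxp3 were no fewer than those without. Bars are mostly of one lineage, and 12 of 30 clonotypes in the L-fuc day 7 pool are of the CD4 type against 6 of 23 in the control day 7 pool.

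Transcript levels were then compared over all T barcodes on UMI sums per pool and class, with the pool as a block (edgeR quasi-likelihood test, Benjamini-Hochberg adjusted p under 0.05 over all genes). Several inhibitory receptors and a few cytotoxic genes, among them Pdcd1, Lag3, Nkg7 and Ifng, were higher in expanded barcodes, and Tcf7 and S1pr1 of the naive list were lower. Of 10471 genes tested, 32 were higher (0.306%) and 9 lower (0.086%). Of these 41 calls, 40 lay outside the Cd3 and T cell receptor constant genes. Each sum reflects both the number of barcodes with a transcript and the amount per barcode, and these cannot be told apart in the sums. The p-values measure the spread of the within-pool difference over 3 pools only, and without the pool block no gene passed (235 at an unadjusted p under 0.05, against 965 with it).

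Of 17 tested genes of the inhibitory receptor and dysfunction list, 8 rose, none fell and 9 did not pass, with a median log2 fold change of 0.71 against -0.03 over all genes. Pdcd1, which encodes the checkpoint receptor PD-1 (chr1:94038305-94052553, minus strand), stood at 403 CPM in expanded and 95.1 in single barcodes at day 0, 146 and 54.8 in the control day 7 pool, and 265 and 103 in the L-fuc day 7 pool. Expanded values were above single values in each pool, with a log2 fold change of 1.55 (SE 0.14, adjusted p = 0.00323). Pdcd1 was detected in 84.6%, 45.2% and 59.6% of expanded against 21.1% and 21.5% of single barcodes at day 0 and control day 7 and 163 of 544 in the L-fuc day 7 pool.

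Lag3, an inhibitory receptor that binds MHC class II, was at 317, 75.2 and 206 CPM in expanded and 104, 42.9 and 78.3 CPM in single barcodes (log2 fold change 1.24, SE 0.15, adjusted p = 0.0104). Havcr2, which encodes TIM-3, was at 199, 75.7 and 90.9 CPM against 29.1, 34.3 and 42.0 CPM. Tigit, an inhibitory receptor for CD155, was at 340, 109 and 254 CPM against 96.5, 62.7 and 115 CPM. For these 3 receptors the expanded value exceeded the single value within every pool, and Havcr2 (1.46, SE 0.23) and Tigit (1.19, SE 0.16) passed the test at adjusted p = 0.0321 and 0.0138. Tox (0.91), Nr4a2 (0.88) and Rgs16 (1.14) were among the other members that rose, the first a transcription factor of dysfunctional T cells. Ctla4 (log2 fold change 0.50, adjusted p = 0.289), Entpd1 (0.71, 0.201), Tnfrsf9 (0.62, 0.538) and Cd160 (-0.19, 0.917) did not pass the edgeR test.

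Of 21 tested cytotoxic effector genes, 4 rose, 1 fell and 16 did not pass, with a median of 0.78. Nkg7, a granule membrane protein (chr7:43437073-43438249, plus strand), was at 2863, 1237 and 2251 CPM in expanded and 548, 510 and 1025 CPM in single barcodes of day 0, control day 7 and L-fuc day 7 (log2 fold change 1.55, SE 0.19, adjusted p = 0.0104). Prf1, the pore-forming perforin, was at 45.3, 58.5 and 178 CPM against 32.3, 27.7 and 84.5 CPM (1.01, SE 0.16), and the day 0 value rested on 10 UMIs. Cst7, an inhibitor of lysosomal proteases, rose by 1.14 (SE 0.13). Ifng, interferon gamma (chr10:118441046-118445892, plus strand), was at 99.6, 196 and 527 CPM against 49.9, 72.3 and 158 CPM (1.48, SE 0.17, adjusted p = 0.00758). One clonotype gave 52.7% of the Ifng UMIs of expanded barcodes in the control day 7 pool and 62.9% in the L-fuc day 7 pool.

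The granzymes did not move together. Gzmb was at 476, 45.4 and 221 CPM in expanded against 71.1, 47.2 and 131 CPM in single barcodes and did not pass (log2 fold change 1.07, SE 0.35, adjusted p = 0.350). Gzmk (1.72, SE 0.42, adjusted p = 0.182) and Gzma (-0.19, SE 0.28, 0.894) did not pass either. Gzmc fell by 4.24 on the log2 scale, but 78.6% of its 1081 UMIs in single barcodes of the L-fuc day 7 pool came from 1 barcode, and no UMI was seen at day 0.

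**Figure D4:**
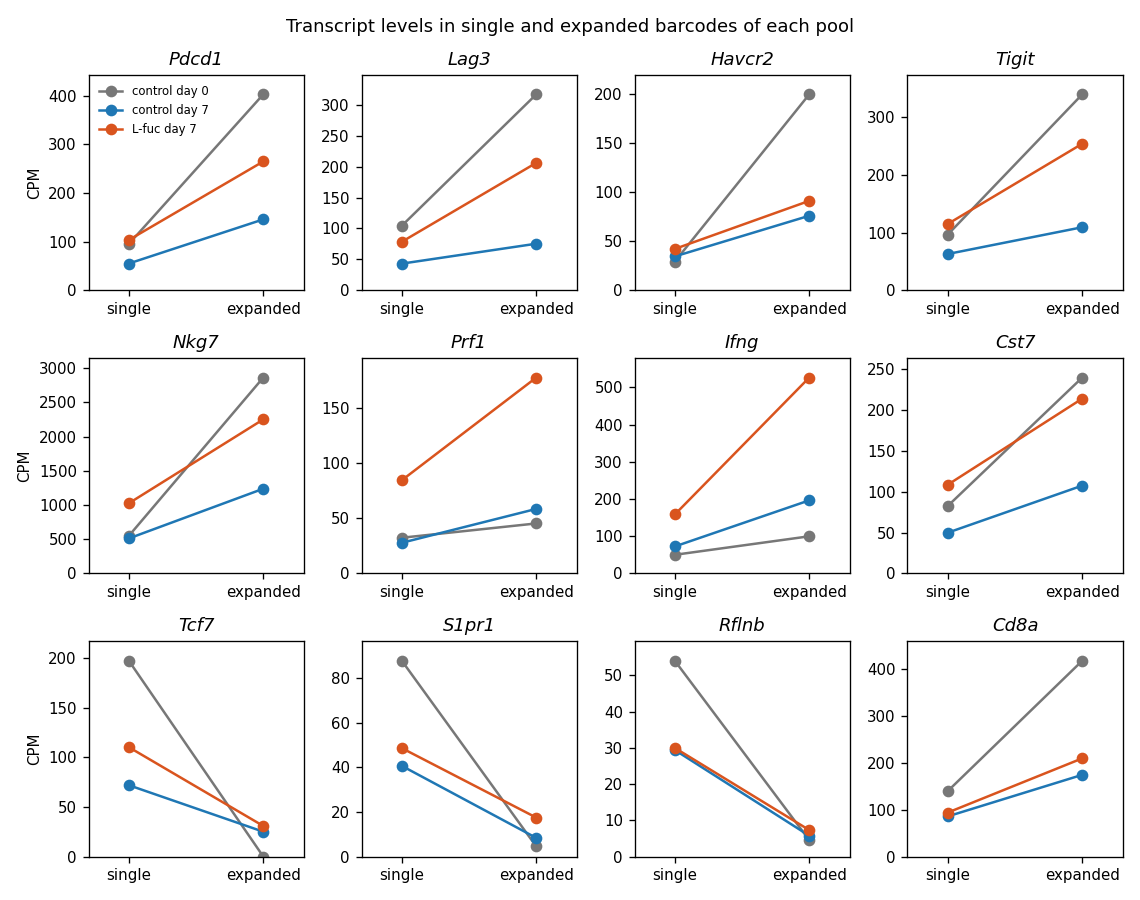
Level of 12 transcripts (CPM, UMIs scaled to the class sum) in single and expanded barcodes, with 1 line per pool. Lines rise in all 3 pools for the first 8 genes and for Cd8a, and fall in all 3 for Tcf7, S1pr1 and Rflnb.

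All 17 tested genes of the naive and central memory list had a negative log2 fold change, with a median of -1.09, and 2 passed the test. Tcf7, a transcription factor of naive and stem-like T cells (chr11:52252371-52283014, minus strand), was listed with 0 UMIs in the 26 expanded barcodes at day 0 against 428 UMIs (198 CPM) in single barcodes. In the control day 7 pool it was at 25.1 against 72.0 CPM and in the L-fuc day 7 pool at 30.8 against 110 CPM (log2 fold change -1.98, SE 0.33, adjusted p = 0.0394). S1pr1, the receptor that lets T cells leave tissues (chr3:115710433-115715072, minus strand), was at 4.53, 8.35 and 17.4 CPM against 87.7, 40.6 and 48.6 CPM (-1.93, SE 0.27, adjusted p = 0.0209). Every expanded value of both genes was below every single value. Il7r, the receptor for interleukin 7, was at 18.1, 75.2 and 109 CPM against 230, 159 and 243 CPM and did not pass (-1.39, SE 0.27, adjusted p = 0.0822), nor did Ccr7 (-0.35, 0.893), Lef1 (-1.09, 0.320) and Klf2 (-1.07, 0.398) in edgeR. Ccr7, a homing receptor, was at 77.3 against 51.5 CPM at control day 7 and 78.7 against 76.5 CPM at L-fuc day 7, so its single value was the higher one only at day 0.

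All 33 tested cell cycle genes had a positive log2 fold change over all T barcodes, with a median of 0.62, and 3 passed: Hmgb2 (0.88, SE 0.15), a chromatin protein, Dut (0.87, SE 0.15), a nucleotide enzyme, and the histone gene Hist1h2ap (1.41, SE 0.19). At day 0, 59.0% of the Hist1h2ap UMIs of expanded barcodes came from 1 barcode. Mki67, a marker of dividing cells, was at 109, 180 and 103 CPM in expanded against 30.9, 128 and 76.3 CPM in single barcodes and did not pass (0.66, SE 0.18, adjusted p = 0.260).

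Of the CD8 lineage list, Cd8a (1.20, SE 0.13), Cd8b1 (0.96, SE 0.13) and Tox rose. Expanded barcodes also had the larger CD8-type share in each pool, and its part in the other differences over all T barcodes was not tested in that fit. No gene passed in the regulatory T cell (17 tested), residency and homing (16), T cell receptor signalling and early activation (23), interferon-stimulated (22), glycolysis (14) or fucosylation (12) lists, whose medians lay between -0.18 and 0.09. In the CD4 helper list (12 tested, median 0.01) only Ifng passed. Of the fucosylation genes, Fut8, the core fucosyltransferase, was at 22.6, 23.5 and 19.9 CPM in expanded and 15.7, 27.1 and 21.1 CPM in single barcodes.

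Among genes outside these lists, Rflnb, a filamin regulator, fell by 2.25 (SE 0.26) and Nsg2, an endosomal protein, by 2.27 (SE 0.34) on the log2 scale. Gramd3 (-1.24), Gm26740 (-0.97) and the B cell chemoattractant Cxcl13 (-1.37) also fell. Ccl1, a chemokine that binds CCR8, was at 58.9, 476 and 574 CPM in expanded and 28.2, 156 and 130 CPM in single barcodes (1.77, SE 0.19, adjusted p = 0.00758). Its UMIs came from few barcodes, with 1 barcode giving 40.5% in expanded barcodes of the control day 7 pool. Nrgn (1.72), Cdkn2a (1.95), the cell cycle inhibitor locus, Wdr95 (1.70) and Cib2 (1.68) were the other large rises. The mast cell tryptases Tpsb2 (2.95) and Tpsab1 (1.49) passed as well and are not on the mast cell list, and 97.8% and 98.4% of their UMIs in expanded barcodes of the L-fuc day 7 pool came from 1 barcode.

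Markers of other cell types were present in both classes. The summed level of the 10 macrophage genes ranged from 3966 to 8982 CPM in expanded and from 3931 to 8199 CPM in single barcodes, and 0 of 10 passed. At least 3 UMIs of 5 macrophage genes were found in 26.9%, 70.8% and 44.4% of expanded and 22.8%, 74.0% and 51.5% of single barcodes. No gene passed in the monocyte, neutrophil, dendritic, B, mast, natural killer, gamma-delta T, tumor, fibroblast and endothelial or red cell lists, each with 3 to 7 tested members. Summed levels of some still differed between classes within a pool. At day 0 the dendritic cell list was at 13.6 CPM in expanded and 409.9 CPM in single barcodes. The B cell list was at 168 and 811 and the monocyte list at 272 and 1213. Ccr7, a naive T cell gene that the study also used to mark a dendritic cell subset, was alone at 4.53 and 271 CPM there. At L-fuc day 7 the dendritic cell list (195 against 172 CPM) and the B cell list (1075 against 687 CPM) were higher in expanded barcodes. At L-fuc day 7 the neutrophil list was at 948 against 166 CPM and the tumor cell list at 243 against 569 CPM. Their part in the results was not tested. With barcodes holding at least 3 macrophage UMIs left out, 33 of 7104 genes tested were higher and 17 lower, and 26 of the 41 calls were among them. That setting left 82 expanded and 116 single barcodes at control day 7, so both genes and barcodes were fewer.

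The count of calls moved with the pools in the fit. Without the day 0 pool, which had only 4 expanded clonotypes and 26 barcodes, 148 genes were higher and 74 lower, without the control day 7 pool 47 and 24, and without the L-fuc day 7 pool 77 and 66. DESeq2 called 31 higher and 5 lower, and 31 of its 36 calls were among the 41 of edgeR. With the barcode holding the most UMIs of a gene left out of each sum, a check chosen after the data were seen, 57 genes were higher and 23 lower, and 38 of the 41 calls remained. The 3 lost were Gzmc, Tpsab1 and Tpsb2.

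Barcodes of clonotypes with a frequency of 2 to 4, which neither class contains, were examined for 32 transcripts. These were list genes called over all T barcodes and others picked by name. For the called genes the direction from single to expanded follows from that choice. For 14 of the 32 these barcodes lay between single and expanded barcodes in all 3 pools. Among the 14 were Nkg7, Lag3, Havcr2, Tigit, Tox, Tcf7, S1pr1 and Il7r. Nkg7 rose from 510 CPM at frequency 1 to 698 at 2, 764 at 3 to 4, 1129 at 5 to 9 and 1279 at 10 or more in the control day 7 pool. In the L-fuc day 7 pool the same steps were 1025, 1250, 1617, 1864 and 2542 CPM. Tcf7 fell from 72.0 CPM to 44.7, 47.5, 37.4 and 20.3 in the control day 7 pool, with a small rise at 3 to 4. Other genes did not rise at each step in that pool. Lag3 was at 42.9, 75.2, 58.3, 57.9 and 81.9 CPM and Tox at 39.6, 72.9, 41.0, 84.1 and 91.3 CPM. Havcr2 and Tigit were lower at 10 or more than at 5 to 9 there. These steps are a description without a test, and a step can hold as few as 4 clonotypes.

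**Figure D5:**
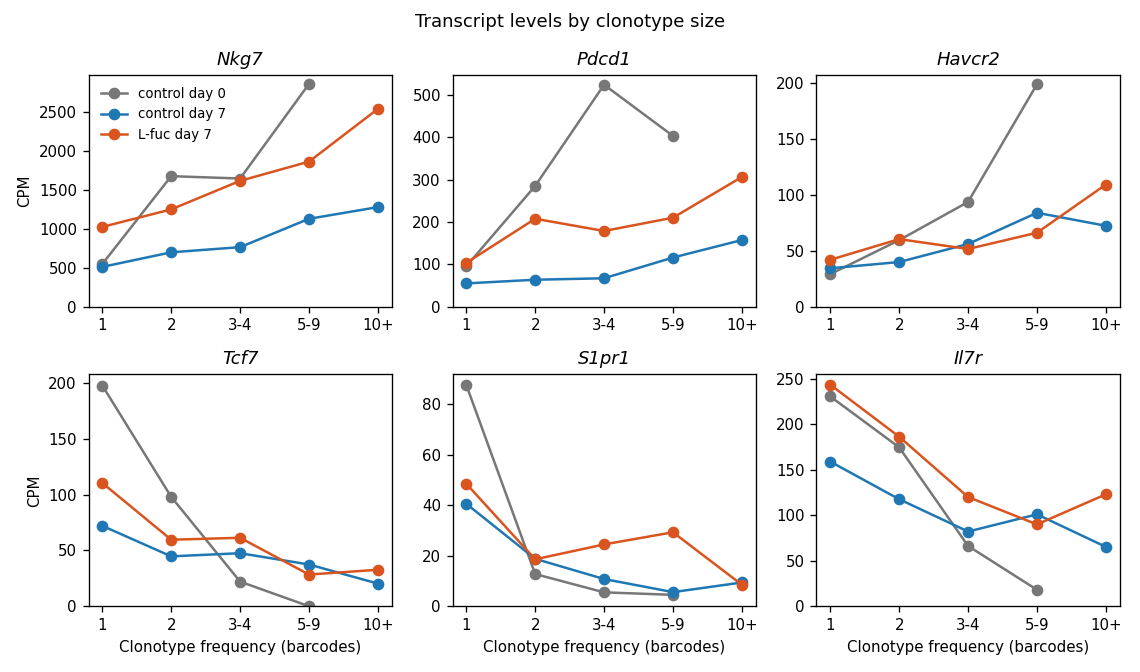
Level of 6 transcripts (CPM) by clonotype frequency (1, 2, 3 to 4, 5 to 9, 10 or more barcodes), 1 line per pool, with no step of 10 or more at day 0. Nkg7 is lowest at frequency 1 in each day 7 pool and in the day 7 pools highest at 10 or more, and Tcf7, S1pr1 and Il7r are highest at frequency 1 in all 3 pools.

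Since the classes differed in lineage, CD8-type barcodes were compared alone, with 18, 182 and 132 expanded and 77, 133 and 128 single barcodes. Barcodes with UMIs of both or of neither co-receptor entered neither the CD8-type nor the CD4-type fit. Of 8358 genes, 3 were higher (0.0359%) and 1 lower (0.012%), while 611 had an unadjusted p under 0.05 and DESeq2 called 4 higher and 3 lower. The histone genes Hist1h2ap (log2 fold change 1.37, SE 0.17) and Hist1h2ae (1.24, SE 0.18) rose and Rflnb fell by 3.08 (SE 0.44). Rflnb was at 0, 3.30 and 3.45 CPM in expanded against 44.1, 26.0 and 26.8 CPM in single barcodes. Ifitm1, an interferon-inducible membrane protein, was called at 2.88 (SE 0.23), but 58.9% and 56.2% of its UMIs in expanded barcodes of the control and L-fuc day 7 pools came from 1 barcode each.

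Within CD8-type barcodes, of the 4 lists given here only Hist1h2ap of the cell cycle list passed over all genes. All 17 inhibitory receptor and dysfunction genes tested were positive (median 0.77), all 16 naive and central memory genes were negative (median -1.13) and 30 of 32 cell cycle genes were positive (median 0.70), against a median of -0.02 over all genes. Of 20 cytotoxic effector genes none passed and 15 were positive (median 0.51), and at control day 7 only 10 of the 20 were positive, with summed levels of 8495 CPM in expanded and 8414 CPM in single barcodes. Il7r was at 26.8, 68.4 and 70.7 CPM in expanded against 188, 151 and 196 CPM in single barcodes (-1.49, SE 0.23, adjusted p = 0.0542). Tcf7 (-2.06, SE 0.34, adjusted p = 0.0730), S1pr1 (-1.88, SE 0.33, 0.0959) and Pdcd1 (0.97, SE 0.17, 0.0980) also missed the edgeR threshold. Pdcd1 was at 449, 139 and 228 CPM against 144, 79.3 and 137 CPM, so its expanded value was higher in each pool. With the highest barcode of each gene left out, 6 genes were higher and 7 lower. Tcf7 (-2.17), Il7r (-1.53), S1pr1 (-2.07), Pdcd1 (0.97) and Rgs16 (1.31) were among them. At day 0 that check took 1 of 18 expanded but 1 of 77 single barcodes from each gene.

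The call count in CD8-type barcodes was again smallest with all pools. It was 62 higher and 44 lower without the day 0 pool, 11 and 3 without the control day 7 pool, and 16 and 34 without the L-fuc day 7 pool. Without the largest clonotype of each pool 1 gene was higher and none lower. Without barcodes holding at least 3 macrophage UMIs none passed in either direction, with only 3852 genes tested. That setting left 56 expanded and 33 single barcodes at control day 7.

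CD4-type barcodes could be compared in the day 7 pools only, since day 0 had 5 expanded barcodes. The control pool had 19 expanded and 81 single barcodes, the L-fuc pool 86 and 164. Among the 19, 1 barcode came from clonotype 1, a mainly CD8-type clonotype. Without that clonotype the expanded sum of the control pool was 107464 UMIs instead of 128758. Whether this barcode was a CD4 T cell was not tested. The fit held 2 pools, 1 control and 1 L-fuc, and its p-values measure the spread over those 2 only. Its call counts do not compare with the 3-pool CD8-type fit, which without day 0 gave 62 higher and 44 lower. Of 7727 genes, edgeR called 55 higher (0.712%) and 34 lower (0.44%), but DESeq2 called 1 and 1 (Ifng and Cxcl9). Of the 87 calls outside the Cd3 and T cell receptor constant genes, 39 had most of their UMIs in a class of a day 7 pool from 1 barcode. With the highest barcode of each gene left out 9 were higher and 7 lower. All 16 were among the first calls, and only the 16 are described as changed here. That check took 1 of 19 expanded but 1 of 81 single barcodes of the control pool from each gene. It therefore lowers expanded sums more, and the median log2 fold change moved from -0.01 to -0.04. It cannot serve as support for the genes that fell. Of the 16, Ccl1, Ccl6, Csf2, Hbb-bs, Hbb-bt, Mest, Nrgn, Serpinh1 and Sparc were among the 39. DESeq2 called only Ifng of the 16.

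The genes that rose in both fits were the cytokines Ifng, Csf2 and Ccl1, the receptors Pdcd1 and Tnfrsf9, and Nkg7, Nrgn, Cib2 and Sdf4. Ifng was at 163 CPM in expanded and 51.2 in single barcodes of the control pool and at 938 and 194 CPM in the L-fuc pool (log2 fold change 2.16, SE 0.20), with 77.9% of the UMIs of expanded barcodes in the L-fuc pool from 1 clonotype. Pdcd1 was at 241 against 67.2 and at 318 against 135 CPM (1.47, SE 0.21). Tnfrsf9, the co-stimulatory receptor 4-1BB, was at 194 against 106 and at 541 against 240 CPM (1.13, SE 0.19). Csf2, the cytokine GM-CSF, was at 109 against 46.4 CPM and at 230 against 62.2 CPM (1.76, SE 0.25), and all 14 UMIs of expanded barcodes in the control pool came from 1 clonotype.

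Those that fell in both fits were Gzma (-1.39, SE 0.21), the chemokine Ccl6, the hemoglobins Hbb-bs and Hbb-bt, and Sparc, Serpinh1 and Mest. Sparc is on the tumor cell list and the hemoglobins are red cell markers, so transcripts of other cells moved with the class, and their part in the result was not tested. Tcf7 was at 0 against 57.6 and at 36.7 against 113 CPM (-1.78, SE 0.38), Havcr2 at 116 against 40.0 and 114 against 49.4 CPM (1.35), and Lag3 at 109 against 56.0 and 283 against 130 CPM (1.14). These 3 were called with all barcodes and not with the highest barcode left out. Of 32 cell cycle genes, 17 were positive (median 0.06) and Hist1h1b alone was called, with all barcodes but not with the highest left out, and at control day 7 only 11 of the 32 were positive. Foxp3 was at 38.8 against 48.0 CPM in the control and 86.4 against 83.4 CPM in the L-fuc pool (0.03, SE 0.30).

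The expanded minus single differences of both day 7 pools are given side by side, with no test, since each condition had 1 pool. For the 8 inhibitory receptor and dysfunction genes called over all T barcodes, the log2 ratio ran from 0.80 to 1.41 at control day 7 and from 0.60 to 1.39 at L-fuc day 7. Pdcd1 had ratios of 1.41 and 1.36, Lag3 of 0.81 and 1.39, Havcr2 of 1.14 and 1.11 and Tigit of 0.80 and 1.14. Nkg7 had ratios of 1.28 and 1.14, Prf1 of 1.07 and 1.07, and Ifng of 1.44 and 1.73. Tcf7 had ratios of -1.50 and -1.82, S1pr1 of -2.21 and -1.45, and Rflnb of -2.25 and -1.97. Cd8a had ratios of 1.02 and 1.16 and Cd8b1 of 0.90 and 0.81. These genes were called in a fit that holds both pools, so their shared direction follows from that choice.

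Cd3e and Cd3g, which the gate used, and the T cell receptor constant gene Trac are given as values only, although they were not left out of the fits. Cd3e was at 1440, 525 and 891 CPM in expanded and 914, 363 and 669 CPM in single barcodes, Cd3g at 1807, 571 and 1014 against 808, 355 and 647 CPM. Trac was at 231, 130 and 247 CPM against 209, 96.4 and 177 CPM.

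The semi-invariant receptor of natural killer T cells, TRAV11 joined to TRAJ18, was found in 20 single barcodes of the control day 7 pool and 30 of the L-fuc day 7 pool, in no single barcode of day 0 and in none of the 584 expanded barcodes. Zbtb16, the transcription factor PLZF of these cells, was detected in 15.0% and 20.0% of them against 1.64% and 3.50% of the other single barcodes. Pdcd1 was detected in 10.0% of them in each pool against 22.0% and 31.1%.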

How the data were processed

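The deposited matrices hold UMI counts per gene and barcode made by the authors with Cell Ranger against mm10 (version 3.0 in the submitters' processing notes, which also name Seurat 4.0, while the matrix headers name 7.1.0). The deposited clonotype files give each clonotype's frequency as a count of barcodes and its proportion as a fraction, both set by Cell Ranger, and the contig files give each barcode's receptor chains and UMI counts. The authors' own filters on cells and doublets were applied downstream of these matrices. Totals per gene expression library were 14439185 to 119047810 UMIs in the 3 pools used (day 0, control day 7, L-fuc day 7), with median depths of 2064 to 4401 UMIs per barcode. Receptor barcodes shared between any 2 of the 5 pools numbered 0 or 1.

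UMIs were summed per pool and class, sums of under 10 barcodes were left out, and edgeR 4.0.16 (R 4.3.3; TMM, filterByExpr, quasi-likelihood test) was fitted with pool and class. TCR V, D and J genes (118 in the comparison of all T barcodes) were left out because they define clonotypes. On simulated sums the fits missed part of the 2-fold changes, most of all in the CD4-type setting. False calls occurred in the settings of all T and of CD8-type barcodes. DESeq2 1.42.0 was an alternative. Log2 ratios within a pool add 1 UMI to each sum. No doublet caller was run, and barcodes with 2 TRB chains were left out in an alternative. Exact Clopper-Pearson intervals at 95% were used. Positions are from GENCODE vM21.

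The members and gene lists were chosen with earlier results of these data known. Named genes were list genes that passed, up to 4 others a list, and the 10 highest and 10 lowest log2 fold changes among calls of one sign in every pool fitted; named clonotypes were the 3 most frequent per pool, and others named were chosen after their values were seen. Day 21 pools, with 7 and 0 expanded barcodes, could not be added to the fit. Values of a few list members are not reported here.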

Additional observations from a re-analysis of the deposited data

Results flagged for a closer look

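The control day 21 pool lay outside the comparisons. It held 1 clonotype of frequency 7 among 56 receptor barcodes (12.5%), all 7 of them CD8-type, with only a TRB chain, while the 22 receptor barcodes of the L-fuc day 21 pool were all single.

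In 5 results the expanded minus single difference had opposite signs at control day 7 and L-fuc day 7, a difference that was not tested. The CD4-type share differed by -11.4 percentage points at control day 7 and 0.900 at L-fuc day 7, and the Foxp3 share by -7.11 and 0.496 points. The CD4-type intervals of expanded and single barcodes overlapped at L-fuc day 7, so the sign there lies within counting error. After thinning to 1000 UMIs the CD4-type differences were -1.64 and 0.120 points. The thinned Foxp3 differences were -2.16 and -1.73 points, of one sign. Among CD4-type barcodes the log2 ratio of S100a8 was -1.97 at control day 7 and 6.10 at L-fuc day 7, that of S100a9 -2.97 and 6.27, and that of Mcpt2 0.54 and -6.33. All S100a8 and S100a9 UMIs of expanded barcodes in the L-fuc pool came from 1 barcode, and 97.7% of the Mcpt2 UMIs of single barcodes there came from 1 barcode.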

How the results depend on the processing

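In all, 198 values of 27 results were computed under other settings, and 103 stayed close to the reported value while 95 moved. Counts below are genes higher and lower in expanded barcodes, against 32 and 9 for all T barcodes, 3 and 1 for CD8-type and 55 and 34 for CD4-type barcodes. The cause of these moves was not tested.

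For all T barcodes, leaving out 1 pool gave 47 to 148 higher and 24 to 74 lower genes, no filter on low counts 205 and 179, no pool block 0 and 0, a frequency of at least 10 gave 49 and 20, and leaving out barcodes with 2 TRB chains 73 and 25. The highest barcode left out gave 57 and 23. The lower count was 5 with DESeq2, 14 with only clonotypes with TRA and TRB, 14 without the largest clonotype of each pool, 16 with single barcodes sharing a chain left out and 17 without barcodes with 3 macrophage UMIs. For CD8-type barcodes, leaving out 1 pool gave 11 to 62 and 3 to 44, no filter 67 and 65, no pool block 0 and 0, a frequency of at least 10 gave 17 and 25, without 2 TRB chains 12 and 6, single barcodes sharing a chain left out 10 and 8, the highest barcode left out 6 and 7, no macrophage barcodes 0 and 0, and no largest clonotype 1 and 0. Families by shared chain gave 1 higher gene. The lower count was 0 with at most 5 barcodes of a clonotype, 3 with DESeq2, 2 with a frequency of at least 3, 2 with RLE factors, 7 with the mitochondrial and complexity filter and 7 with TRA and TRB required. For CD4-type barcodes, DESeq2 gave 1 and 1, a frequency of at least 3 gave 1 and 1, families 26 and 10, the highest barcode left out 9 and 7, no filter 84 and 76, no pool block 0 and 0, TRA and TRB required 86 and 86, shared chains left out 27 and 11, and no 2 TRB chains 92 and 65. The lower count was 60 without the largest clonotype and 58 without the largest family. Families, shared chains, the largest family and the highest barcode were settings chosen after the data were seen.

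The expanded share at day 0, control day 7 and L-fuc day 7 was 15.0%, 39.6% and 37.8% at a frequency of at least 3 and 0%, 22.7% and 14.6% at one of at least 10, and families gave 43.1% and 41.0% at day 7. With at most 5 barcodes of a clonotype the control day 7 expanded barcodes were 53.6% CD8-type and 12.7% Foxp3, and with TRA and TRB required the L-fuc ones were 54.8% CD8-type. Thinned to 1000 UMIs, CD8-type shares of expanded barcodes were 29.2% and 28.5% at day 7, those of single barcodes 16.7%, 15.7% and 13.3%, CD4-type shares 12.3% of expanded L-fuc and 12.2%, 6.26% and 12.2% of single barcodes, and Foxp3 shares 0%, 1.42% and 3.61% of expanded and 5.23%, 3.58% and 5.34% of single barcodes.

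Over all T barcodes, 11 of 32 named genes (among them Cd8a, Cst7, Ifng, Lag3, Nkg7, Nrgn, Pdcd1, Rflnb, Rgs16 and Tigit) passed under each of the 19 settings other than no pool block. Tpsab1 turned to -2.53 at a frequency of at least 10 and to -0.66 with the highest barcode left out. Among CD4-type barcodes Car9 turned to 0.45 with families, and S100a8 to -6.75 and S100a9 to -7.23 with TRA and TRB required. Adding the day 21 pools was not run, since neither held 10 expanded barcodes. For CD4-type barcodes, leaving out a pool, a frequency of at least 10, at most 5 barcodes of a clonotype and leaving out macrophage barcodes gave no value, since under 2 pools kept 10 barcodes in each class. The labels carry no replicate numbers, and expanded and single sums were paired by pool in each fit but that without the pool block.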
